A study of Arabidopsis thaliana with 3 samples.

Results

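A set of 219 of the 33602 Arabidopsis thaliana loci counted was lower in a leaf explant than in both control libraries, while the controls stood close to each other. The loci were chosen from the counts themselves. A locus had to hold at least 100 counts in both controls, its level in the 2-day control and at the start (T0) had to lie within 1.5-fold of each other, and its level in the explant had to be at most 1/3 of each. Levels are CPM, that is the count of a locus scaled to the total count of its library. Of the loci, 15347 had enough counts in both controls to be measured, 9211 of these were steady between the controls by this limit, and 2.38% of the steady loci met the limit on the explant. That share is the outcome of the rule and nothing is read from it. Without the steadiness limit the loss held for 420 measured loci, 2.74% of them; 201 of these differed between the controls, 160 with T0 more than 1.5 times the 2-day control and 41 the other way round. The opposite pattern, an explant level of at least 3 times each of a steady pair of controls, was shown by 85 loci, 0.923% of the steady ones. Among all measured loci 1.36% were at least 3 times higher in the explant than in each control.

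The libraries came from the first pair of rosette leaves of the accession Col-0, with 1 library in each of 3 groups and therefore no replicate, no p-value and no measure of spread between plants. The explant library is labelled as wounded for 2 days, the second as a control of 2 days and the third, T0, as a control. All are labelled with an age of 12 days after sowing, so it is not known whether leaves sampled on day 2 were older than those at T0. Seedlings grew under 16 h of light and 8 h of dark at 22 °C, and explants were kept on B5 medium without carbohydrate under the same light regime. No mutant, transgene or added hormone is named for any group. The series text speaks of a wound site and of leaf residue, but the labels do not say which piece of leaf each library holds, whether the 2-day control was detached, or how many plants were pooled.

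Leaves of the labelled age are generally still expanding, but expansion was not measured here. Growth of a young leaf depends on cytokinin, gibberellin, brassinosteroid and auxin signalling, on water uptake into the vacuole through aquaporins, and on a cell wall that is loosened and refilled with new polysaccharide and glycoprotein. The outer epidermis, which carries the cuticle, is held to set much of the pace of this expansion.

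Over all 219 loci the explant held a median of 23.2% of the level in the lower of the 2 controls, with quartiles at 17.1% and 28.7%, against a median of 123% over all measured loci and 109% over the steady ones. For 91 members the explant kept between 1/4 and 1/3 of the lower control, for 50 between 1/5 and 1/4, and for 58 between 1/10 and 1/5. A further 8 kept between 1/20 and 1/10, and 12 kept at most 1/20. The median log2 ratio of explant to control was -2.20 against the 2-day control and -2.24 against T0, where all measured loci had medians of -0.04 and 0.20. Together the members held 0.504% of the explant's counts, 2.26% of those of the 2-day control and 2.38% of those at T0. With an exact 95% counting interval (Clopper-Pearson, from the binomial split of a locus count between libraries), 173 members stayed wholly below the limit against both controls. Such an interval stands in brackets behind a ratio. It covers counting error only, and may be too narrow even for that where several reads stem from 1 molecule. One member, RL6, had 0 counts in the explant, and 61 had fewer than 100.

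**Figure D1:**
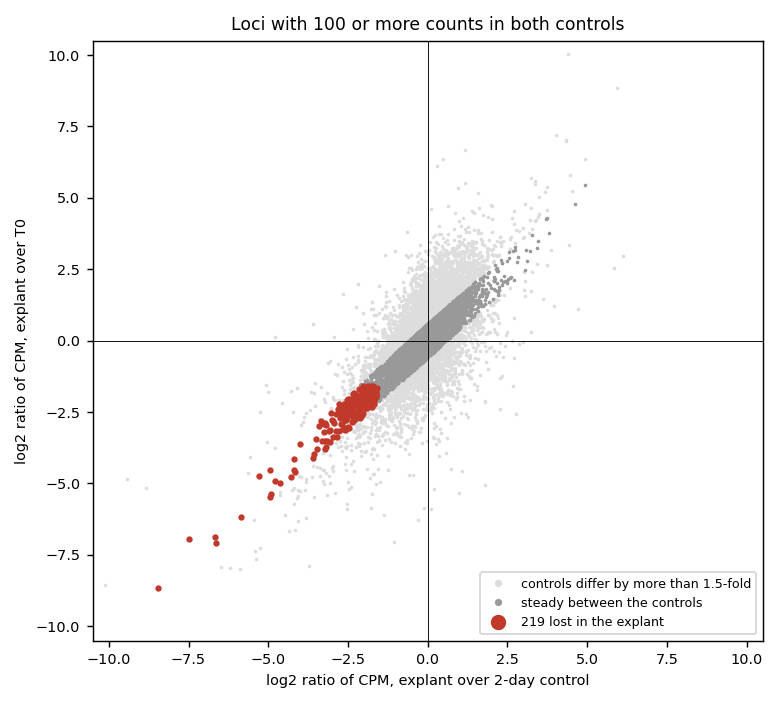
Log2 ratio of explant CPM to that of the 2-day control (horizontal) and over T0 (vertical), computed with 0.5 added to each count, for the 15347 loci with at least 100 counts in both controls. Each point is a locus; dark grey points are steady between the controls, and the 219 red points are those lost in the explant, which lie at the lower left by the rule, down to -8.45 and -8.65 for RL6.

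At the limit itself stood the copper ATPase gene PAA2, the cytokinin receptor gene HK2 and AT2G35470 just inside, with explant levels of 0.332, 0.331 and 0.331 of the lower control. Just outside were AT3G45430 at 0.337, AT1G67865 at 0.338 and FAMT at 0.342, which differ little from the members named before them. Between the controls the members were spread to both sides. The 2-day control was above T0 for 101 members and below it for 118, with a median ratio of 0.973 and a range from 0.668 to 1.49, which is the range the rule allows. Over all measured loci this ratio had a median of 1.21.

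By biotype 211 members were protein-coding, 4 were pseudogenes and 1 a transcribed pseudogene, and 3 were genes of RNAs that are not translated. They lay on all 5 chromosomes, with 73, 38, 37, 28 and 43 members on chromosomes 1 to 5. All 219 were found by locus in the reference names and 102 of them had a gene symbol. A total of 112 members could be placed in 12 groups by what their products are known to do; these groups were drawn up after the values were seen, as were the examples in them that the naming rule does not give. Counts for gene lists and families below are to be set beside those of all measured loci. Of these, 219 of 15347 were members and 2.74% were at most 1/3 of both controls.

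Of the role groups the one lost by the most was that of plant-specific glutaredoxins of the CC type, with a median of 67.5 times below the lower control over 6 genes. This median takes ROXY2 and AT3G21460 at ratios that rest on 1 explant count each. With a floor of 3 counts they were at least 49.4 and 60.7 times below the lower control, which would make the median smaller. They are small redox proteins of which several bind TGA transcription factors. AT2G47880 had 10 counts in the explant against 1042 in the 2-day control and 1145 at T0, or 0.214, 23.1 and 26.6 CPM. It was 108 times lower than the 2-day control (58.5 to 226) and 124 times lower than T0 (67.2 to 259). ROXY2, known from anther development, had 1 count in the explant against 143 and 188, a ratio to the 2-day control of 148 (26.2 to 5891). For AT3G21460 the explant also had 1 count, against 261 and 168, a ratio to T0 of 182 (32.2 to 7234). In these genes the explant was near the floor of detection and the controls were not. AT1G06830 stood at 0.428 CPM in the explant against 17.3 and 11.6 CPM in the 2-day control and T0. AT2G30540 had 0.343, 8.67 and 11.1 CPM in the same order. The mildest of the 6, AT3G62930, had 1.22, 7.56 and 6.10 CPM and was 5.0 times lower than T0 (3.74 to 6.78).

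The reference gives the CC-type domain to 21 loci, a family taken up after these values were seen. Of its 13 measured loci, 6 were steady between the controls, and all 6 are members. In 2 others, AT3G62950 and AT4G15660, the explant was also at most 1/3 of each control, but the controls differed. AT3G62950 had 0.193 CPM in the explant against 8.63 and 33.4 CPM in the 2-day control and T0. The other 5 measured loci met neither limit, and 0 were at least 3 times higher in the explant than in both controls. The limit on the explant was met by 2.38% of all steady loci and 2.74% of all measured ones. Since the family was picked on these values, nothing is read from its share. AT5G18600, with the highest counts of the family in all 3 libraries, had 27.4, 41.3 and 81.0 CPM. No near-identical copy was found for any of the 6 members.

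**Figure D2:**
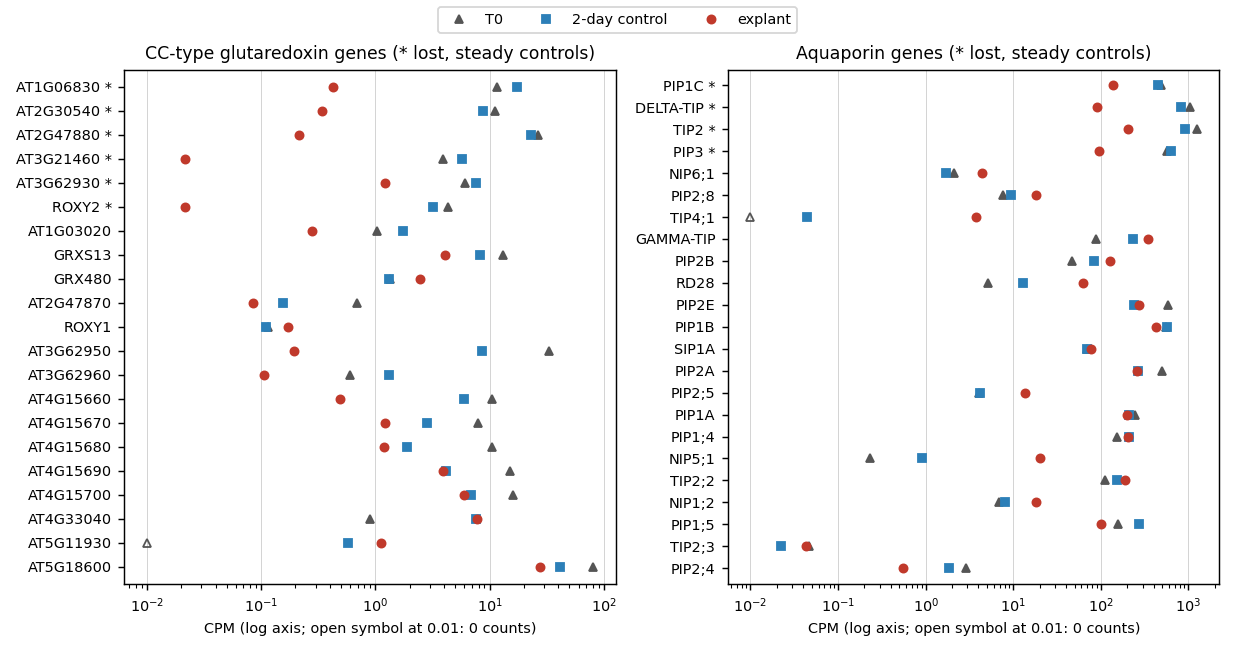
CPM (log axis) in the explant, the 2-day control and T0 for the CC-type glutaredoxin genes (left) and the genes of the aquaporin list (right), one value per library and no error bar because each group has 1 library; open symbols at 0.01 stand for 0 counts. Asterisks mark members, whose explant level lies to the left of both controls by the rule; ROXY2 and AT3G21460 lie farthest left, at 0.0214 CPM.

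Cytokinin is read by histidine kinase receptors, which pass a phosphate to response regulators; type-A response regulator genes are induced by the hormone and dampen its signal. Among these, ARR4 stood at 31.4 CPM in the explant against 182 and 143 CPM in the 2-day control and T0. ARR6 had 5.01, 41.6 and 43.4 CPM and was 8.30 times lower than the 2-day control (7.25 to 9.55). ARR15 had 13 counts in the explant against 254 in the 2-day control and 342 at T0, a loss of 20.2 times against the 2-day control (11.6 to 38.5). The loss in these 3 genes follows from the rule, and their control levels were not all high. ARR15 had 0.278, 5.63 and 7.94 CPM in the same order, below ARR4 and ARR6 in each library. HK2 (AHK2), a receptor, had 35.7, 122 and 108 CPM, and CRF2, a cytokinin response factor of the AP2/ERF class, had 7.13, 34.6 and 26.4 CPM. The other receptor genes did not share the pattern: HK3 (AHK3) had 138, 182 and 146 CPM, and WOL (AHK4) 9.03, 19.7 and 8.72 CPM. Of 19 measured genes on the cytokinin list, 5 were members, 6 were at most 1/3 of both controls and 0 at least 3 times both. Over all measured loci 219 of 15347 were members, 2.74% were at most 1/3 of both controls and 1.36% at least 3 times both. RR5, the sixth, had 2.55, 18.8 and 30.4 CPM and was set apart by its controls. The list's median log2 ratio was -1.12 against the 2-day control and -1.61 against T0. Exons of ARR6 share 23.9% of their bases with a gene on the opposite strand, and no strand setting is given, so its count is less certain.

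GASA6, which encodes a small cysteine-rich peptide regulated by gibberellin, had 169 counts in the explant against 9382 in the 2-day control and 11253 at T0. This was 3.62, 208 and 261 CPM, a loss of 57.5 times against the 2-day control (49.4 to 67.4) and 72.2 times against T0 (62.0 to 84.5). Among members with at least 100 explant counts it was the one lost by the most. GA3OX1, the oxidase that makes bioactive gibberellin, had 2.14, 9.51 and 7.03 CPM. GAI, a DELLA repressor of gibberellin responses, had 40.8, 129 and 138 CPM and was 3.18 times lower than the 2-day control (3.01 to 3.35). Members thus included a gene of hormone synthesis as well as a repressor of the response. The related DELLA gene RGA1 was steady between the controls but less low in the explant, at 66.2, 110.0 and 163 CPM. GID1B, a gibberellin receptor gene, was the 1 gene of the list at least 3 times higher in the explant than in both controls, with 41.0, 12.6 and 9.26 CPM. Of 13 measured gibberellin genes, 3 were members and no others were at most 1/3 of both controls. The limit on the explant was met by 2.74% of all measured loci.

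BEN1, a reductase-like protein known to lower brassinosteroid levels, had 24 counts in the explant against 724 in the 2-day control and 996 at T0. It was 31.2 times lower than the 2-day control (20.8 to 49.1). HBI1 and BEE1 encode bHLH factors that promote growth in response to brassinosteroid. HBI1 stood at 29.9, 175 and 205 CPM in the same order, and BEE1 at 2.93, 11.1 and 15.3 CPM. BZS1, a B-box protein that acts against brassinosteroid responses, had 4.80, 17.3 and 15.2 CPM. On the brassinosteroid list BEE1 was the 1 member among 15 measured genes, beside 219 of 15347 over all measured loci. BEE3 also met the limit on the explant, with controls that differed, at 2.63, 34.5 and 14.2 CPM.

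The EXORDIUM family, cell wall proteins linked to brassinosteroid-promoted leaf growth, supplied 3 members. It was taken up after its values were seen, so nothing is read from its share beside 219 of 15347 over all measured loci. EXO had 31.9 CPM in the explant against 226 and 168 CPM in the 2-day control and T0, and was 5.26 times lower than T0 (4.97 to 5.56). EXL3 had 38.7, 250 and 242 CPM. EXL5 had 34.7, 199 and 170 CPM. By the rule, the controls of each lay within 1.5-fold of each other and the explant was at most 1/3 of both. Of the 6 measured genes of the family, PHI-1 was at most 1/3 of both controls without steady controls, EXL2 met no limit, and EXL4 went the other way with 116, 35.04 and 24.7 CPM. For auxin, 1 of 25 measured list genes was a member, the SAUR-like gene AT4G38860 at 5.03, 16.3 and 21.4 CPM. At most 1/3 of both controls were 4 of the 25, against 2.74% of all measured loci. TMK1, a receptor-like kinase of cell surface auxin signalling, had 72.6, 234 and 279 CPM.

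RL6, a RADIALIS-like MYB-related gene, had 0 counts in the explant against 168 in the 2-day control and 185 at T0. With a floor of 3 counts in the explant library it was at least 58.0 times lower than the 2-day control and at least 66.8 times lower than T0. FD, the bZIP partner of the florigen FT, had 14, 430 and 306 counts and was 23.7 times lower than T0 (13.9 to 43.8). FD is best known from the shoot apex; of 9 genes on the shoot meristem list 1 was measured, and the list summed to 59.6, 78.6 and 146 CPM. OFP16, of the ovate family of repressors, had 1.22, 21.9 and 29.5 CPM and was 17.9 times lower than the 2-day control (13.7 to 23.9). Other transcription regulators lost less. ULT1, a trithorax-type regulator, had 7.36, 40.1 and 30.5 CPM. The zinc finger homeodomain gene HB25 had 5.48, 24.3 and 23.1 CPM. MYB70 had 7.62, 29.8 and 36.5 CPM. TCP15, a growth regulator of the class I TCP family, had 6.72, 23.0 and 23.2 CPM, and its controls were nearly equal. Over the 14 transcription regulators the median loss against the lower control was 4.0 times, taken over the 13 with explant counts.

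The gene of a microRNA was among the members. MIR167d belongs to the miR167 family, which targets the auxin response factors ARF6 and ARF8. It had 264 counts in the explant against 1891 in the 2-day control and 2188 at T0, or 5.65, 41.9 and 50.8 CPM, 7.42 times below the 2-day control. These are counts over the precursor gene in a library of longer RNA and say nothing of the mature microRNA.

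In the epidermis, homeodomain-leucine zipper factors of class IV set cell identity. ATML1, a central member of that class, stood at 33.9 CPM in the explant against 150.1 and 167 CPM in the 2-day control and T0, 4.43 times below the 2-day control (4.19 to 4.68). HDG12, of the same class, had 3.51, 13.0 and 10.6 CPM. PDF2, the closest relative of ATML1 in function, differed from it with 103, 138 and 104 CPM, and HDG2 had 25.1, 32.8 and 22.3 CPM. Loss of ATML1 was therefore not shared by these genes. Of 12 measured genes on the epidermis list, 2 were members, 3 were at most 1/3 of both controls and 0 at least 3 times both. The third was MYB16, a regulator of cuticle and cell shape, at 6.06, 49.2 and 31.1 CPM. Of all measured loci, 219 of 15347 were members, 2.74% met the lower limit and 1.36% the higher one. The list summed to 936.7 CPM in the explant against 1095 and 921.7 CPM in the 2-day control and T0, and no gene of it was at 0 in all libraries. Its largest terms were the lipid transfer gene LP1 (LTP1), at 415, 263 and 175 CPM, and KCS10, at 217, 310 and 295 CPM. In RNA of whole pieces of tissue, fewer cells of a type cannot be told apart from less RNA per cell.

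GPAT8 and CYP86A8 make cutin monomers, an acyltransferase and a fatty acid hydroxylase. GPAT8 had 16.9, 69.7 and 102 CPM, and CYP86A8 13.3, 50.6 and 42.7 CPM. They were 2 of the 4 genes at most 1/3 of both controls among the 26 measured cuticle genes, against 2.74% of all measured loci. KCS8 and KCS16, of long-chain fatty acid elongation, were the others and were far higher at T0 than in the 2-day control. ETC2, a single-repeat MYB protein that holds back trichome formation, had 1.35, 7.45 and 7.96 CPM. GTL1, a trihelix factor that limits the growth of trichome cells, had 56.5, 223 and 223 CPM. Trichome markers had 2 measured genes and summed to 49.3, 57.1 and 67.9 CPM, and of 12 measured stomatal genes 0 were members, with sums of 245, 375 and 423 CPM. Neither list had a gene at most 1/3 of both controls.

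Several members act on cell shape through microtubules. LNG2, one of the LONGIFOLIA proteins that promote lengthwise leaf growth, had 16.6 CPM in the explant against 135 and 95.9 CPM in the 2-day control and T0. It was 5.79 times lower than T0 (5.36 to 6.26). TRM3, of the same family, had 41.8, 215 and 230 CPM, and TRM4, also of the family, 39.3, 52.8 and 33.1 CPM. LNG1 was low in the explant too, at 3.36, 12.5 and 21.7 CPM, but its controls differed. The beta tubulin gene TUB8 had 23.5, 102 and 113 CPM, and the actin family gene AT2G42170 had 6.79, 47.1 and 60.4 CPM. On the list of leaf growth regulators, 1 of 16 measured genes was a member (LNG2) and 3 were at most 1/3 of both controls. Besides LNG2 these were LNG1 and GRF3. Of all measured loci, 219 of 15347 were members and 2.74% were at most 1/3 of both controls.

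Aquaporins pass water through the vacuolar and plasma membranes. DELTA-TIP (TIP2;1), of the vacuolar membrane, had 4266 counts in the explant against 37024 in the 2-day control and 45184 at T0, or 91.3, 821 and 1048 CPM. It was 8.99 times lower than the 2-day control (8.71 to 9.28). TIP2 (TIP1;2), also vacuolar, had 202, 923 and 1253 CPM, 4.58 times below the 2-day control (4.48 to 4.68). Of the plasma membrane, PIP3 (PIP2;7) had 95.6, 637 and 576 CPM. PIP1C (PIP1;3) had 136, 454 and 491 CPM. Under TMM and DESeq2 scaling the controls of DELTA-TIP and TIP2 differed by more than 1.5-fold, so these 2 of the 4 then left the set. The list was divided. Of 18 measured aquaporin genes these 4 were at most 1/3 of both controls, 12 met neither limit, and PIP2;5 and RD28 (PIP2;3) were at least 3 times higher in the explant. Of all measured loci, 2.74% were at most 1/3 of both controls and 1.36% at least 3 times both. PIP2;5 had 13.6, 4.12 and 4.04 CPM. RD28 had 62.4, 13.0 and 5.08 CPM, a value that can be affected by its close paralog PIP2;2. As a whole the list had a median log2 ratio of 0.07 against the 2-day control and -0.08 against T0, where all measured loci had -0.04 and 0.20. Its summed level was nevertheless lower in the explant, at 2868.5 CPM against 5171.3 in the 2-day control and 5895.4 at T0.

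Among the role groups, drawn up after the values were seen, that of the cell wall held 24 members, with a median loss of 3.96 times against the lower control. Its size depends on how widely the group was drawn, and it has no count of measured wall genes as a base. GALS1, which makes the galactan side chains of pectin, had 15.1 CPM in the explant against 140 and 111 CPM in the 2-day control and T0, and was 7.36 times lower than T0 (6.80 to 7.98). F8H, a glycosyltransferase of xylan synthesis, had 1.31, 12.0 and 10.2 CPM. LRX3, a leucine-rich repeat extensin, had 85.1, 410 and 329 CPM, 3.86 times below T0 (3.73 to 4.0). SHV3, a membrane-anchored protein needed for wall organization, had 82.1, 303 and 373 CPM. PMR6, a pectate lyase-like protein, had 86.2, 312 and 285 CPM, and 32.9% of its exon bases are shared with a gene on the opposite strand. CSLA03, a glucomannan synthase of the cellulose synthase-like A family, had 19.9, 100.1 and 72.7 CPM. These genes thus covered pectin, xylan, mannan and structural proteins.

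Arabinogalactan proteins, heavily glycosylated proteins at the cell surface, supplied AGP9, AGP16, AGP21 and AGP26, and the fasciclin-like protein FLA18. AGP26 was lost by the most among them, at 6.64, 40.8 and 31.9 CPM, 4.80 times below T0 (4.24 to 5.45). AGP21 had 21.7, 107 and 76.7 CPM. AGP16 had 26.8, 108 and 112 CPM, AGP9 had 35.8, 112 and 129 CPM, and FLA18 had 81.8, 287 and 269 CPM. Of 16 measured genes named as arabinogalactan proteins, 4 were members, 5 were at most 1/3 of both controls and 0 at least 3 times both. Over all measured loci 2.74% were at most 1/3 of both controls. The DUF642 wall proteins DGR2 and AT5G11420 were members: DGR2 had 57.3, 289 and 367 CPM and AT5G11420 had 36.5, 291 and 249 CPM. Of 6 measured DUF642 genes, a family taken up after its values were seen, 3 were at most 1/3 of both controls and 3 met neither limit.

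On the list of wall loosening and pectin enzymes, 6 of 31 measured genes were at most 1/3 of both controls, 2 were at least 3 times both, and 0 were members, since in all 6 the controls differed by more than 1.5-fold. XTH4, a xyloglucan-modifying enzyme, illustrates this with 127, 687 and 406 CPM, and TCH4 (XTH22), of the same family, with 21.7, 211 and 659 CPM. On the list of cellulose synthesis and arabinogalactan proteins 13 of 20 measured genes were steady, 1 was a member (AGP9) and 2 were at most 1/3 of both controls. Of all measured loci, 219 of 15347 were members, 2.74% were at most 1/3 of both controls and 1.36% at least 3 times both.

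**Figure D3:**
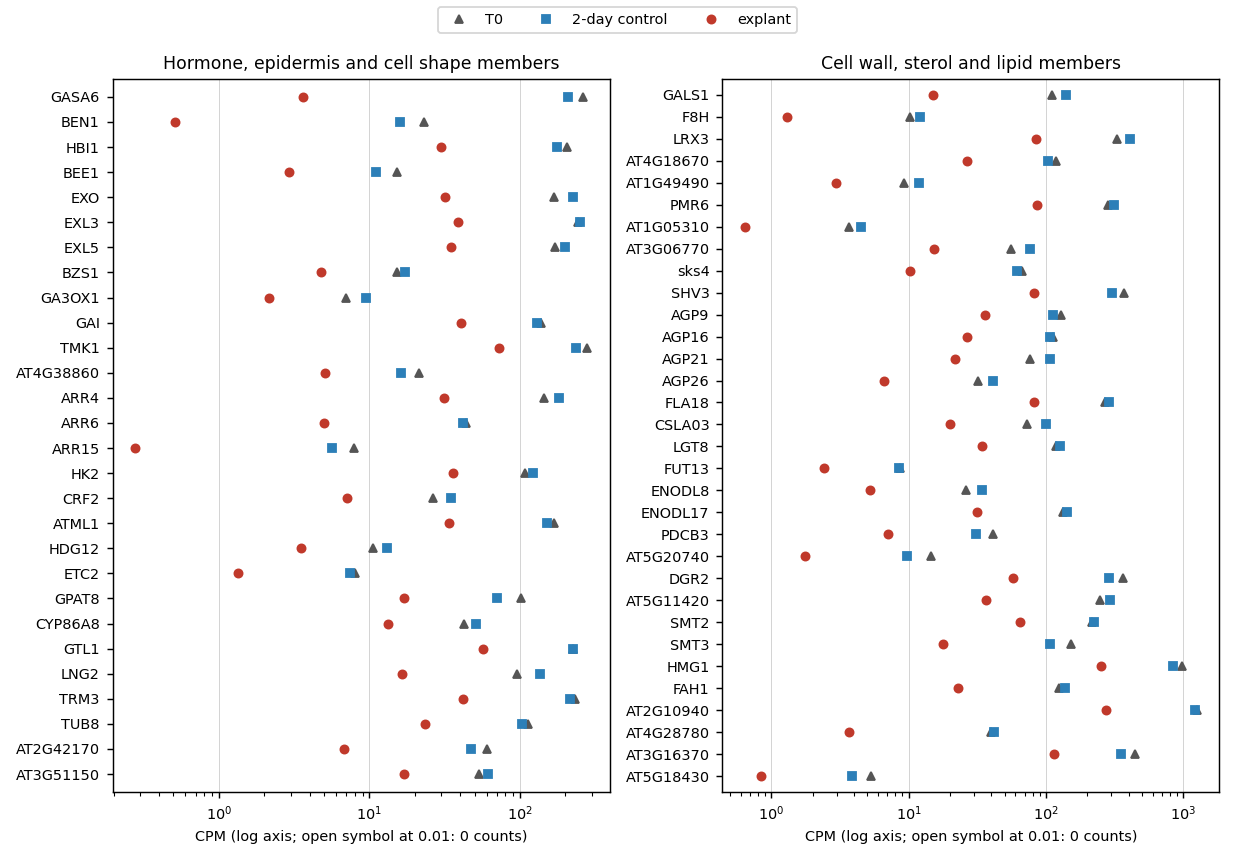
CPM (log axis) in the explant, the 2-day control and T0 for the members in the hormone, epidermis and cell shape groups (left) and in the cell wall, sterol and lipid groups (right), one value per library and no error bar. The squares and triangles of the controls lie within 1.5-fold of each other and the explant circle lies to the left of both by the rule; the distance is longest for GASA6 at 57.5 times.

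Sterols shape the membranes of growing cells. HMG1, the reductase at the head of the pathway to sterols, had 253 CPM in the explant against 839 and 972 CPM in the 2-day control and T0, and was 3.31 times lower than the 2-day control (3.24 to 3.38). SMT2 and SMT3, sterol methyltransferases that steer the pathway to sitosterol, had 65.1, 225 and 217 CPM and 17.7, 107 and 153 CPM. SMT1, an earlier methyltransferase, was no member, with 9397, 13155 and 10763 counts. FAH1, a hydroxylase of sphingolipid fatty acids, had 22.9, 138 and 124 CPM. AT2G10940, annotated as a lipid transfer protein, had the most counts of any member in the controls, 55016 in the 2-day control and 54043 at T0, against 12688 in the explant. It was 4.49 times below the 2-day control (4.41 to 4.58).

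Transporters among the members served metals, amino acids and peptides. ZIF1, a vacuolar carrier involved in zinc tolerance, had 18.9, 147 and 133 CPM, 7.04 times below T0 (6.56 to 7.57). AAP2, an amino acid permease that moves amino acids from xylem to phloem, had 13.6, 99.2 and 79.6 CPM. It was the 1 member among 22 measured genes of nitrogen, sulfur and phosphate supply, beside 219 of 15347 over all measured loci. Of the 22, 3 were at least 3 times higher in the explant than in both controls: NIR1, SULTR1;2 and PHO1. Over all measured loci that share was 1.36%. NIR1, nitrite reductase, had 1382, 356 and 359 CPM, so like AAP2 it was steady between the controls by the limit, but it moved the other way. PAA2, the copper ATPase of the thylakoid membrane, had 97.9, 323 and 295 CPM. ABCA4, an ABC transporter, had 1.5, 4.63 and 4.85 CPM. Phloem markers, the tissue in which AAP2 acts, summed to 954, 1607 and 1088 CPM, and 0 of 12 measured were at most 1/3 of both controls; their part in the AAP2 value was not tested.

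In membrane traffic, RABG3B, a small GTPase of the Rab7 class that acts at the vacuole, had 10.8 CPM in the explant against 90.1 and 128 CPM in the 2-day control and T0. It was 8.34 times lower than the 2-day control (7.60 to 9.16). The patellins are lipid-binding proteins of the growing cell plate and plasma membrane. PATL1 had 310, 1134 and 1221 CPM, 3.66 times below the 2-day control (3.60 to 3.73). PATL2 had 95.1, 513 and 461 CPM. Members of enzyme and peptide families were UGT85A5, a glycosyltransferase at 5.76, 33.9 and 49.8 CPM, the cytochromes P450 CYP81F3 at 0.792, 5.14 and 4.64 CPM and CYP76C6 at 2.80, 10.7 and 12.0 CPM, and the CLE peptide gene CLE42 at 0.749, 2.77 and 2.65 CPM. CLE42 had 35 counts in the explant. TTL3, a scaffold protein of brassinosteroid signalling and cellulose synthesis, had 48.1, 213 and 254 CPM, and TTL4, its relative, 15.3, 66.9 and 72.4 CPM, while TTL1 of the same family had 61.1, 65.4 and 58.1 CPM.

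A further 107 members were in no role group. Among them were 3 of the 5 loci annotated with the domain DUF1005, whose function is not established. This family too was taken up after its values were seen, and nothing is read from its share. Of all measured loci, 219 of 15347 were members. AT1G50040 had 2.46, 44.8 and 57.4 CPM, 18.2 times below the 2-day control. AT3G19680 had 16.3, 197 and 282 CPM, and AT1G10020 had 21.4, 83.0 and 92.6 CPM. AT3G06070, without an annotated function, had 122 counts in the explant against 3561 in the 2-day control and 4662 at T0, 30.2 times below the 2-day control. In the reference order of genes 4 pairs of members were next to each other, among them the TRAF-like genes AT2G32870 and AT2G32880.

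**Figure D4:**
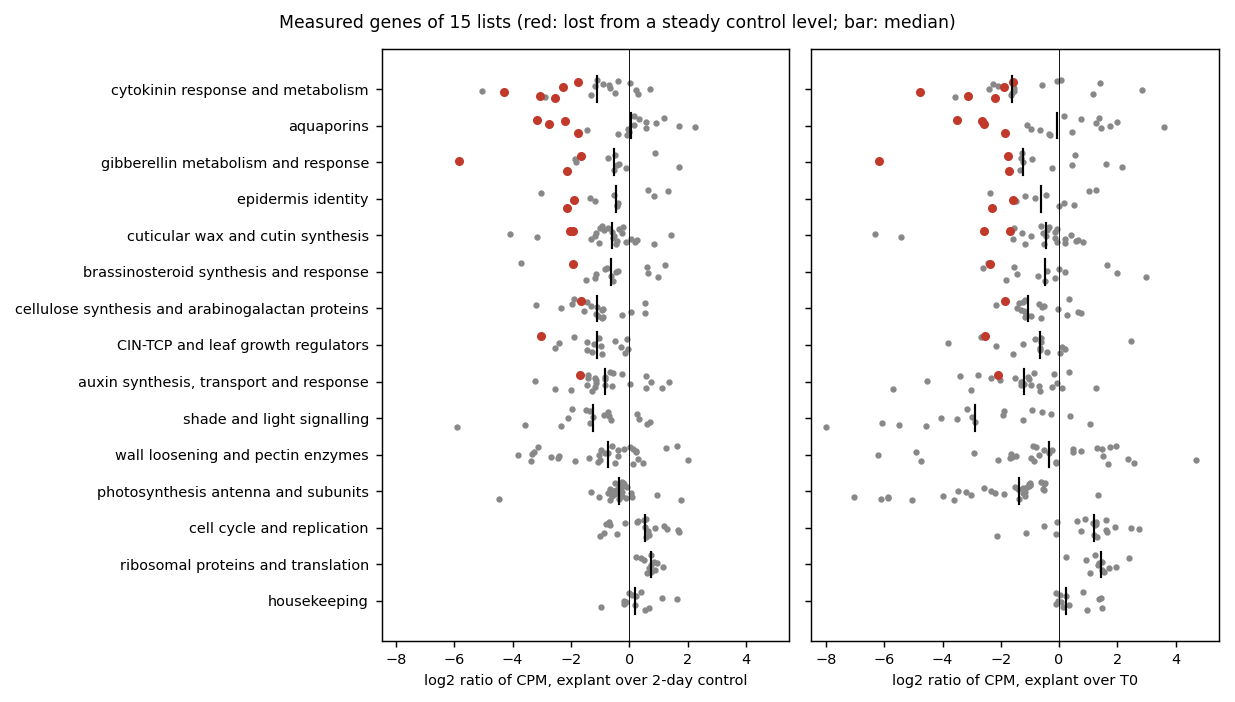
Log2 ratio of explant CPM to that of the 2-day control (left) and over T0 (right) for each measured gene of 15 lists, with members in red, other genes in grey and the median of each list as a bar; each point is a gene and compares 1 library with 1 library. The cytokinin list has 5 members and medians of -1.12 and -1.61, while the ribosomal list has 0 members and medians of 0.74 and 1.42.

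On the remaining lists, which held no members, the limit on the explant was met by some genes whose controls differed. Over all measured loci it was met by 2.74%. In photosynthesis 1 of 33 measured genes was at most 1/3 of both controls, in chlorophyll and carotenoid synthesis 1 of 20, in starch and sugar metabolism 8 of 41, in jasmonate 3 of 28, in shade and light signalling 5 of 17, in cold and abscisic acid 2 of 24, and in iron, copper and zinc 2 of 19. Membership also needs steady controls, which few genes of some lists had: 5 of 17 for shade, 8 of 33 for photosynthesis, 12 of 41 for starch and sugar, 2 of 9 for the clock and 0 of 6 for flavonoids. Ribosomal proteins (12 measured), the clock (9), glucosinolates (21), flavonoids (6), salicylate (17), leaf polarity (13) and housekeeping genes (13) had 0 genes at either limit, and the cell cycle list (20) had 0 at the lower and 2 at the higher one. Mesophyll markers summed to 9096 CPM in the explant against 13228 and 15763 CPM in the 2-day control and T0, with 1 of 9 at most 1/3 of both controls and none at 0. Xylem markers (7 measured) summed to 29.5, 54.9 and 149.7 CPM, procambium markers (10) to 322, 343 and 233 CPM with 1 gene at least 3 times higher in the explant, and root markers to 59.3, 65.3 and 29.1 CPM, with 5 of 11 root markers at 0 in all libraries. The part of these shifts in the losses of the 219 loci was not tested.

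The steadiness of some members depended on the scaling. With total counts the median log2 ratio of the 2-day control to T0 over measured loci was 0.28, and with TMM, a scaling that sets most loci level, it was 0.01. Under TMM 167 of the 219 remained in the set, 52 left it and 44 other loci entered. Of the members described above, GASA6, BEN1, BEE1, ROXY2, ARR15, OFP16, RABG3B, DELTA-TIP, TIP2, GPAT8, UGT85A5, SMT3, DGR2, AT2G30540, AT2G42170, AT4G38860, AT1G50040, AT3G19680, AT3G06070 and AT2G32880 left. With DESeq2 size factors these left too, with SHV3 and MYB70. When the limit between the controls was widened to 2-fold under TMM, an alternative added after seeing the data, all 219 met the rule, so what those 52 missed was the limit between the controls and not the loss in the explant.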

How the data were processed

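The values used were read counts per locus, whole numbers that the authors deposited without normalization, 1 table for each of 3 libraries. FastQC, HTSeq and DESeq are listed, without versions, in the submitters' processing notes, with TAIR10 as the build; not given in the sources used here are the aligner, annotation release and strand setting. Totals over loci were 46713257 counts for the explant, 45097732 for the 2-day control and 43099934 for T0; lines that name no locus were left out, with 2.12% to 2.18% of reads assigned to several loci and 0.677% to 0.763% to none. CPM were counts divided by these totals. Exact 95% intervals of ratios came from the binomial split of the counts; log2 ratios used 0.5 added to each count. No test was run, since each group has 1 library. The members, the 25 pathway lists, the 9 marker lists and the families were chosen with earlier results of these data known. Role groups, 8 families and some examples were chosen after their values were seen. The 8 families were the CC-type glutaredoxins, EXORDIUM, DUF1005, DUF642, sterol methyltransferases, TTL, LONGIFOLIA and patellins. Of 774 list symbols 19 had no match, and ATHB-7 on the epidermis list is not an epidermal gene. The naming rule took, among members with a symbol, the 12 with the lowest upper bound of the ratio, the 10 with the highest CPM, up to 4 per list or family, and 3 loci on each side of the limit. It names 52 genes.

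Names came from RefSeq's TAIR10.1 annotation. Since the counts were made on another build, no coordinates are given. Of the members 35 share exon bases with another gene model, 4 of them over 50% (AT2G26215, AT3G05900, AT4G26540 and CYTC6A), and 2 (AT2G39690 and AT4G16008) have a copy at 95% identity over 100 bases by blastn 2.17.0; counts of these are uncertain. Scaling alternatives used edgeR 4.0.16 and DESeq2 1.42.0 (factors only). The scripts, in Python 3.11.15, were tested on simulated data.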

Additional observations from a re-analysis of the deposited data

How the results depend on the processing

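The set held 219 loci with total counts, 211 with TMM factors, 206 with DESeq2 size factors and 217 with totals outside the 100 most abundant loci; 161 were in it under every one of these scalings. A minimum of 30 or 300 counts gave 259 and 181 loci, a limit of 2-fold between the controls 291, thinning to the smallest library 217, and the interval rule 173. TMM lost 52 loci and gained 44, DESeq2 factors lost 58 and gained 45. A limit between the controls tighter than 1.5-fold left 140 loci. At most 0.5 of each control gave 510 loci with a median explant share of 36.4%, and at most 0.2 gave 78 with 14.3%, as the rule is built. TMM with a 2-fold limit between the controls, added after seeing the data, gave 308. For 16 of 49 named members the ratio of explant to lower control left its counting interval under TMM, for 16 under DESeq2 factors and for 7 with totals outside the most abundant loci. No paired analysis was possible because each group has 1 library. No library could be left out for the same reason. Depth limits the 61 members with fewer than 100 explant counts, whose ratios have the widest intervals, and spread between plants is not known for any locus.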
